A study of Mus musculus with 18 samples.

Results

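Total RNA of mouse medulloblastoma cells was compared after 3 h with Rapalink-1 and after 3 h with rapamycin, each in 3 of the 18 libraries of the series. Libraries were selected by their labels, and after transcript rows of each gene were merged 11271 of 15307 features passed the filter on low counts and were tested. All 6 drug libraries and the 3 DMSO libraries of total RNA were fitted together, while the ribosome footprint libraries of the series were not used here. The cells are the GTML line, in which a human MYCN transgene was overexpressed. In the mouse model from which it comes, the Glt1 promoter acts through a tetracycline-responsive element (TRE) to express MYCN and luciferase in hindbrain progenitors. All groups carried this transgene and grew in neurobasal medium with B27, L-glutamine, EGF, bFGF and antibiotics. The first group received Rapalink-1 at 50 nM, the second rapamycin at 5 nM, and the third the vehicle DMSO. Compound and dose therefore cannot be told apart in any difference between the drugs. In the library names, the sample numbers of DMSO and Rapalink-1 total RNA run on, while those of rapamycin stand apart. Whether the rapamycin libraries were prepared or sequenced separately is not given in the sources used here. Such a difference could not be told apart from the drug. The labels name 1 line and do not say whether replicates were separate cultures, so p-values measure the spread between these samples, which may be technical.

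The kinase mTOR works in a complex, mTORC1, that couples nutrients and growth factors to protein synthesis. It phosphorylates the S6 kinases and the 4E-BP proteins, which hold back the cap-binding factor eIF4E until they are phosphorylated. Rapamycin binds FKBP12 and blocks mTORC1 allosterically, mainly toward the S6 kinases. Rapalink-1 joins rapamycin through a linker to an inhibitor of the ATP site of mTOR, and the series compares the drugs because Rapalink-1 blocks both arms of mTORC1. In medulloblastoma, a tumour of the developing hindbrain, MYCN is a driver of growth. The comparison asks how RNA abundance differs between both kinds of inhibition; it says nothing of translation or protein.

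Reads assigned to genes numbered 13300292, 12149285 and 11887026 with Rapalink-1, 9397100, 12073278 and 9471322 with rapamycin and 10781667, 11210853 and 6788365 with DMSO. Levels are CPM, read counts scaled to a common library size that takes in TMM factors, which assume that most genes do not differ. Changes are log2 fold changes ± standard error of Rapalink-1 over rapamycin from edgeR's quasi-likelihood test, so that a gene that rose was higher with Rapalink-1. A gene was called at a Benjamini-Hochberg adjusted p under 0.05 over all genes tested. A 95% interval is the change ± the normal quantile times its standard error. It is too narrow where the test has few degrees of freedom. No spike-in is recorded in the sources used here, so a change is measured against the remaining genes in that library. Of the marker lists of other cell types, 1 oligodendrocyte gene, 3 microglia and blood genes and 1 vascular gene had a row under their symbol and passed the filter. The row of mouse Mycn had 770.5, 792 and 843 CPM with Rapalink-1, against 685, 681 and 686 CPM with rapamycin and 790.4, 779 and 810.3 CPM with DMSO. It was higher with Rapalink-1 than with rapamycin by 0.23 ± 0.04 (adjusted p = 1.6e-05), close to the DMSO level. The call was lost with library totals in place of TMM (0.09, adjusted p = 0.084), and the row may hold reads of the human transgene, whose share was not determined.

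Large parts of the transcriptome differed between the drugs, mostly by small amounts. Of 11271 genes, 2213 were higher with Rapalink-1 than with rapamycin (19.6%) and 2422 were lower (21.5%), 41.1% in all. At a log2 change of at least 1, 62 genes rose (0.55%) and 189 fell (1.68%), so that large falls outnumbered large rises. The 3 values of each drug did not overlap for 5885 genes (52.2%), and the common biological coefficient of variation was 5.72%. Against DMSO, 2182 genes were higher (19.4%) and 2123 lower (18.8%) with Rapalink-1, and 1532 were higher (13.6%) and 1180 lower (10.5%) with rapamycin. These comparisons share the DMSO libraries.

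The balance of rises and falls depended on the scaling. TMM factors lay between 0.932 and 0.944 with Rapalink-1 and between 1.03 and 1.04 with rapamycin. With plain library totals the median of all genes was -0.14 in place of 0.00, and 1056 genes were higher (9.37%) and 3963 lower (35.2%). Counts under library totals are given below beside each group, and a rise under about 0.14 lies within that shift. List counts below are to be read against the shares over all genes, 19.6% higher and 21.5% lower. With library totals these shares were 9.37% and 35.2%. DMSO replicate 3, the shallowest library, exceeded both other DMSO libraries in many of the largest falls, as counted below. It enters the comparison of the drugs through the spread, the filter on low counts and the scaling, and 11401 genes were tested without it. Without it 2334 genes were higher (20.5%) and 2540 lower (22.3%), and in the 6 drug libraries alone 2508 were higher (22.4%) and 2577 lower (23%).

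**Figure D1:**
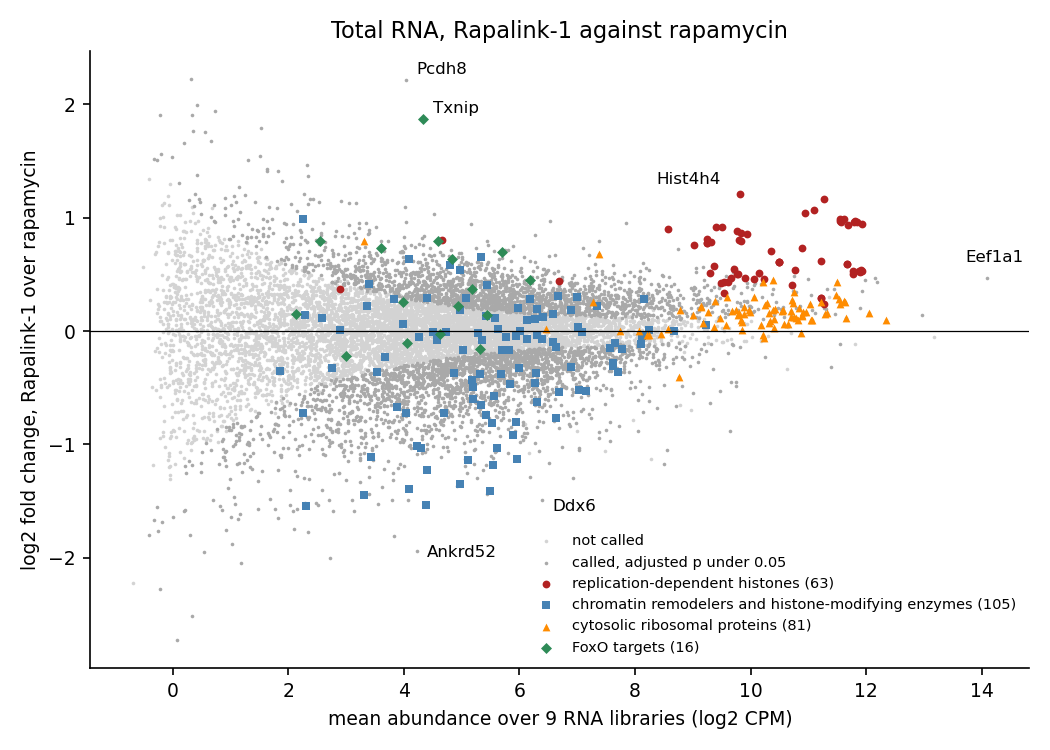
Log2 fold change of Rapalink-1 over rapamycin (vertical axis) against mean abundance in log2 CPM (horizontal axis) for all 11271 genes tested, with 4 gene lists in colour. Replication-dependent histones (63) lie above 0, most of them at the abundant end, while chromatin regulators (105) lie on both sides of 0.

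Genes for the core histones and linker histones rose together. Replication-dependent histone genes lie in clusters, are transcribed in S phase, and give mRNAs that end in a stem-loop in place of a poly(A) tail. Of 63 tested, 58 rose and 0 fell, at a median of 0.61, against 19.6% higher and a median of 0.00 over all genes. With library totals, the split was 58 higher and 0 lower, at a median of 0.47. The list was assembled after values were seen, because 10 of the 15 largest rises were histone genes. Counts of near-identical copies share reads, so members are not independent, and whether polyadenylated RNA was selected is not given in the sources used here.

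Histone rows together held 14.2, 13.4 and 14.4% of reads in the Rapalink-1 libraries. The share was 9.58, 9.31 and 9.64% in the rapamycin libraries and 9.74, 10.5 and 9.38% in the DMSO libraries. All 3 Rapalink-1 libraries lay above all others, while rapamycin and DMSO overlapped. Reads shared by several copies can be counted more than once in these sums. Of the same 63 genes, the calls against DMSO were 56 higher and 0 lower with Rapalink-1, and 0 higher and 36 lower with rapamycin.

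Linker histones, which bind DNA between nucleosomes, had the highest of the 5 family medians: all 5 H1 genes rose, at a median of 1.04. Hist1h1d had 3954, 3771 and 3837 CPM with Rapalink-1, against 1757, 1678 and 1724 CPM with rapamycin and 1796, 1857 and 1764 CPM with DMSO. It rose by 1.16 ± 0.04 (adjusted p = 8.2e-27), and its rapamycin and DMSO libraries lay close together, far under the Rapalink-1 libraries. Hist1h1a had 3315, 3158 and 3202 CPM with Rapalink-1, against 1535, 1525 and 1551 CPM with rapamycin and 1776, 1795 and 1792 CPM with DMSO, a rise of 1.07 ± 0.04 (adjusted p = 6.2e-26). For Hist1h1c, with 3006, 2878 and 3043 CPM with Rapalink-1, against 1469.7, 1404 and 1454 CPM with rapamycin and 1424, 1469 and 1431 CPM with DMSO, the rise was 1.04 ± 0.04 (adjusted p = 3.2e-25). In both genes the drugs were separated by more than any spread within a group.

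The nucleosome core histones differed by family. All 12 H3 genes rose, at a median of 0.96, and 6 of them, Hist1h3d, Hist1h3e, Hist1h3f, Hist1h3a, Hist1h3h and Hist1h3g, were among the 15 largest rises at 0.96 to 0.99. These rows had closely similar counts and may count largely the same reads. All 13 H4 genes rose at a median of 0.53, with Hist4h4 apart from the rest. Hist4h4 had 1510.2, 1389.7 and 1356 CPM with Rapalink-1, against 616, 603 and 628 CPM with rapamycin and 639, 744 and 609 CPM with DMSO, and rose by 1.20 ± 0.06 (adjusted p = 4.4e-13). All 15 H2B genes rose at a median of 0.46. Of 18 H2A genes 13 rose, at a median of 0.80 over the 18, and the 5 without a call were Hist2h2aa1, Hist2h2aa2, Hist2h2ab, Hist2h2ac and Hist1h2aa, at 0.29 to 0.41. Of these 5, the 4 from the Hist2 cluster were called in the 6 drug libraries alone and without DMSO replicate 2 (adjusted p up to 4e-09). Hist2h2ac also passed without DMSO replicate 3 (adjusted p = 0.049), and Hist1h2aa without Rapalink-1 replicate 3 (0.51, adjusted p = 0.041). H1 and H3 thus stood higher than H2B and H4 as medians, a difference between families that was not tested.

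**Figure D2:**
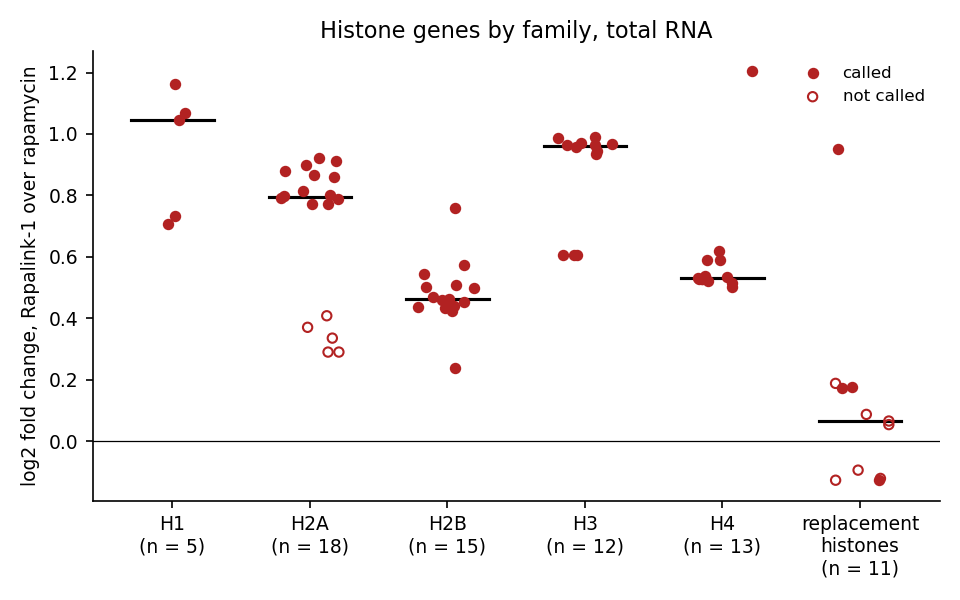
Log2 fold change of Rapalink-1 over rapamycin for each histone gene tested, by family, with called genes filled and the family median as a line. H1 genes (n = 5) and H3 genes (n = 12) have medians of 1.04 and 0.96, while the 11 replacement histone genes lie around 0.07 with H1f0 at 0.95.

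Replacement histones, which are made outside S phase from polyadenylated mRNAs, moved less. Of 11 tested, 3 rose and 1 fell, at a median of 0.07 (with library totals 1 higher and 4 lower, at a median of -0.08). H1f0, a linker histone of resting cells, rose by 0.95 ± 0.08; H3f3a and H3f3b, which encode the H3.3 variant, rose by 0.18 and 0.17 and H2afz fell by 0.13. Both H3.3 calls were lost with library totals (0.03 each, adjusted p = 0.63 and 0.59), and that of H2afz without Rapalink-1 replicate 2 (-0.11, adjusted p = 0.051). Among 10 genes of histone mRNA processing 5 rose and 3 fell, at a median of 0.14. With library totals the split was 2 higher and 3 lower, at a median of -0.0002. Both short lists are to be set against 19.6% higher and 21.5% lower over all genes. Slbp, which binds the stem-loop, rose by 0.31 ± 0.06, and Npat, a coactivator of histone transcription, fell by 0.37 ± 0.07. Both lists and these genes were chosen after their values were seen.

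Promoters of the 3 H1 genes and of Hist4h4 are shown because these genes led the histone rises; each runs from 250 bases before to 50 after the annotated start, from RefSeq on GRCm38.p6, 5′ to 3′ on the gene's strand. Capitals mark CCAAT, searched on both strands, the letters of the box bound by NF-Y.
Hist1h1d (chr13:23554782-23555081, plus strand): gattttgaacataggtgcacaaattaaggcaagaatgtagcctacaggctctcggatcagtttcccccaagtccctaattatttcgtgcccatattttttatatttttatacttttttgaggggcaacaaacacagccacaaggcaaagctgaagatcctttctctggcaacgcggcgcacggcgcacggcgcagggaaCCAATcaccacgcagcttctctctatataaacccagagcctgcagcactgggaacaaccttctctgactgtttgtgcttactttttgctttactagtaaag
Hist1h1a (chr13:23763418-23763717, plus strand): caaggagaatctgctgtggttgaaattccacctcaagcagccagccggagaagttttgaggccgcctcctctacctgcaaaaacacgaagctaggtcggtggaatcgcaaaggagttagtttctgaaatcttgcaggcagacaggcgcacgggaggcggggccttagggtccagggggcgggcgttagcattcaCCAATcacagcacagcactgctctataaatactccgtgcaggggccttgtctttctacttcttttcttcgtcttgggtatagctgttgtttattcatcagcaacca
Hist1h1c (chr13:23738557-23738856, plus strand): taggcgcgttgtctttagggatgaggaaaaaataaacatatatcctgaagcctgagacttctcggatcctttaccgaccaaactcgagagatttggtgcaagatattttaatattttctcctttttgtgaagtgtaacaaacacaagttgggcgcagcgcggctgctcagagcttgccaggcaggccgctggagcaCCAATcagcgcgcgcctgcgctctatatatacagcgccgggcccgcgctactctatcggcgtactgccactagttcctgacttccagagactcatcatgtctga
Hist4h4 (chr6:136804382-136804681, minus strand): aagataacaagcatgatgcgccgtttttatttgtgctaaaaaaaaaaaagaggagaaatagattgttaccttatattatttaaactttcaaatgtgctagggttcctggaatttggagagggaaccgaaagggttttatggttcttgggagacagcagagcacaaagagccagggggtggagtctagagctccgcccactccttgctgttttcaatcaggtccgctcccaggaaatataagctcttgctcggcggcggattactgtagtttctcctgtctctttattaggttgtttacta
CCAAT was present in 48 of 57 histone genes with a promoter in the table (84.2%), including all 5 H1 genes, and in 37.4% of all 32851 promoters. A listed gene was counted if any of its promoters matched, while the share over all promoters counts each promoter singly. This favours lists with several promoters per gene, such as the 21 sterol genes with 31 promoters. The share was not particular to genes that rose. It was 17 of 19 endoplasmic reticulum chaperones (89.5%), where falls outnumbered rises, and 19 of 21 sterol genes (90.5%), which split. Among lysosomal and autophagy genes it was 11 of 35 (31.4%). In Hist1h1d its first base lay at -51 from the start, in Hist1h1a at -56 and in Hist1h1c at -54. The window of Hist4h4 holds no CCAAT on either strand. A match is a description of letters and not a measured site.

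Outside the histones, the leading rises were Pcdh8 and Txnip. Pcdh8 encodes a protocadherin, a cell adhesion protein of the nervous system, and lies on chromosome 14 from 79766772 to 79771312 (GRCm38). Its level was 36.5, 32.99 and 36.6 CPM with Rapalink-1, against 8.94, 7.36 and 6.66 CPM with rapamycin and 3.86, 4.88 and 2.28 CPM with DMSO, and it rose by 2.21 ± 0.13 (adjusted p = 1.6e-17). No other gene taken by the naming rule rose as much. Both drugs stood above DMSO, at 3.20 against DMSO with Rapalink-1 and 0.99 with rapamycin. Insm1, a zinc-finger factor of neuronal and neuroendocrine progenitors, had 123, 127 and 129 CPM with Rapalink-1, against 65.9, 64.9 and 61.9 CPM with rapamycin and 78.5, 94.5 and 81.8 CPM with DMSO. It rose by 0.97 ± 0.06 (adjusted p = 2.1e-16), with Rapalink-1 above and rapamycin below all DMSO libraries. Coq8a, a kinase-like protein of coenzyme Q synthesis, rose by 1.09 ± 0.12, and Nfkbil1, an ankyrin-repeat protein named for its likeness to inhibitors of NF-kappaB, by 1.03 ± 0.10.

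**Figure D3:**
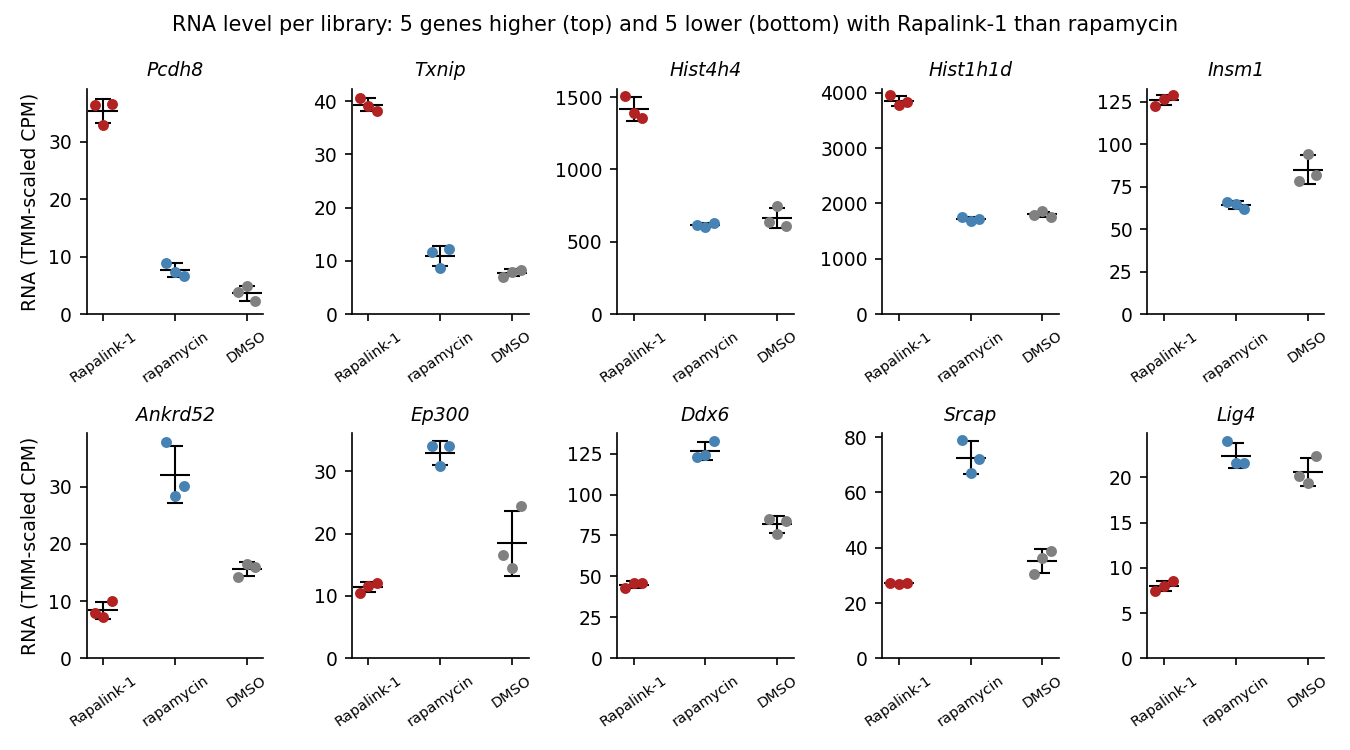
RNA level in TMM-scaled CPM of 10 genes in each library of Rapalink-1, rapamycin and DMSO; bars give mean ± SD (n = 3 each). The upper 5 genes lie above all rapamycin and DMSO libraries with Rapalink-1, and the lower 5 lie below them.

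The 15 largest falls included coactivators, chromatin remodelers and RNA-binding proteins. Ankrd52, a regulatory subunit of protein phosphatase 6 encoded on chromosome 10 from 128377124 to 128394006 (GRCm38), had 7.91, 7.24 and 9.97 CPM with Rapalink-1, against 37.8, 28.5 and 30.1 CPM with rapamycin and 14.3, 16.6 and 15.97 CPM with DMSO. It fell by 1.94 ± 0.13 (adjusted p = 3.2e-16), and the DMSO libraries lay between the drugs. Ep300, a histone acetyltransferase and coactivator, had 10.5, 11.5 and 12.1 CPM with Rapalink-1, against 34.02, 30.8 and 34.1 CPM with rapamycin and 16.6, 14.5 and 24.4 CPM with DMSO, a fall of 1.53 ± 0.13 (adjusted p = 2.2e-12). Its close relative Crebbp had 20.03, 17.4 and 19.7 CPM with Rapalink-1, against 53.6, 47.6 and 43.9 CPM with rapamycin and 24.05, 25.2 and 30.8 CPM with DMSO and fell by 1.34 ± 0.10 (adjusted p = 4e-15). For both acetyltransferases, too, DMSO lay between the drugs.

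Srcap, the ATPase of a complex that loads H2A.Z, had 27.2, 27.1 and 27.4 CPM with Rapalink-1, against 78.8, 66.9 and 71.9 CPM with rapamycin and 30.3, 36.3 and 38.9 CPM with DMSO. It fell by 1.41 ± 0.08 (adjusted p = 4.9e-18), with the DMSO libraries nearer to Rapalink-1. Baz2a, a subunit of a nucleolar remodeling complex, had 10.1, 10.4 and 11.2 CPM with Rapalink-1, against 32.5, 26.3 and 24.6 CPM with rapamycin and 9.96, 11.7 and 16.3 CPM with DMSO, a fall of 1.39 ± 0.13; here DMSO and Rapalink-1 overlapped. Lig4, the ligase of non-homologous end joining, had 7.43, 8.03 and 8.53 CPM with Rapalink-1, against 24.05, 21.6 and 21.6 CPM with rapamycin and 20.1, 19.4 and 22.4 CPM with DMSO, and here the DMSO libraries lay near the rapamycin libraries. It fell by 1.49 ± 0.12 (adjusted p = 3e-13). Further among the 15 largest falls were Arid1a, a subunit of BAF remodelers, at -1.22 ± 0.16, Polr2a, the large subunit of RNA polymerase II, at -1.30 ± 0.21, and the splicing coactivator Srrm2 at -1.29 ± 0.10. Spen, a transcriptional corepressor, stood at -1.19 ± 0.09, Rbbp6, a ubiquitin ligase that binds RB1, at -1.23 ± 0.09, and Ppp2r2a, a regulatory subunit of protein phosphatase 2A, at -1.37 ± 0.25. Qser1 stood at -1.28 ± 0.09 and Tmem131 at -1.26 ± 0.10. All were called.

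Values that moved with these falls are given here. DMSO replicate 3 exceeded both other DMSO libraries in 12 of the 15 largest falls and in 2 of the 15 largest rises. It did so in 50.0% of all genes that fell, 23.9% of those that rose and 36.7% of all genes. Genes that rose had a median genomic span of 17.95 kb, and genes that fell one of 36.4 kb. The part of either in the falls was not tested.

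Across 5 equal groups of genes by genomic span, which includes introns, the share of genes that rose was 28.5, 25.8, 24.00, 19.6 and 10.9% in order of length. The share that fell was 15.3, 18.2, 21.4, 26.7 and 36.97%. Spearman's rho between log2 change and span was -0.21 across 9708 genes, a description over genes that share libraries. In the longest group, over 69.3 kb, the median was -0.01 for Rapalink-1 over DMSO and 0.12 for rapamycin over DMSO. In the shortest group these medians were 0.00 and -0.06. The gradient thus lay in the rapamycin values more than in those of Rapalink-1, by the median, and both use the same DMSO libraries.

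**Figure D4:**
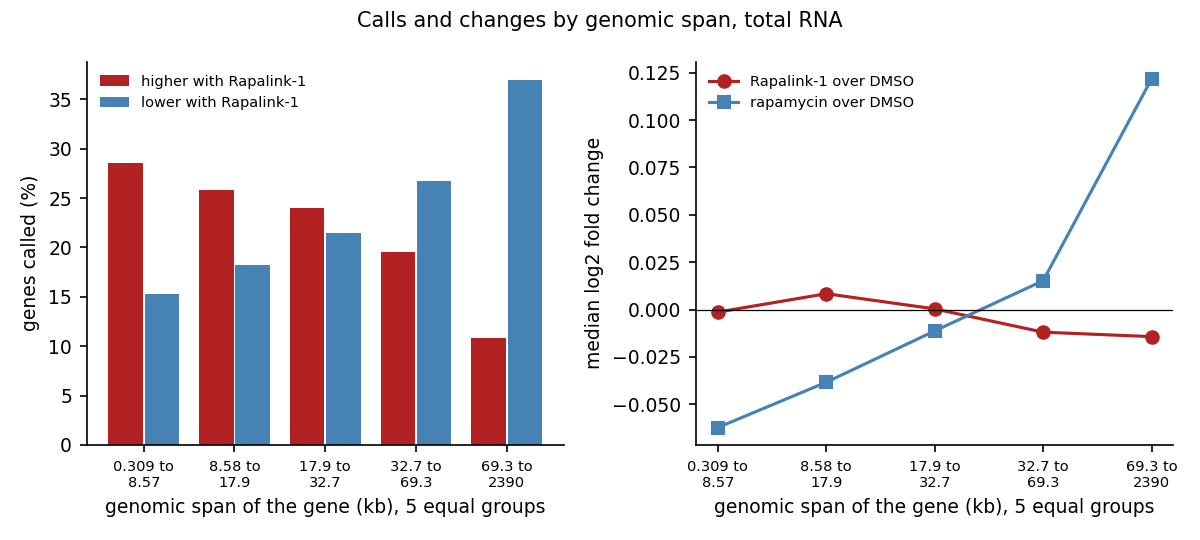
Left, percentage of genes called higher or lower with Rapalink-1 than with rapamycin in 5 equal groups of genes by genomic span (kb). Right, median log2 fold change of each drug over DMSO in the same groups. The share of rises is 28.5% in the shortest genes and 10.9% in the longest, where the rapamycin median is 0.12.

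Chromatin remodelers, histone-modifying enzymes and genes of related symbol were counted as a list by the start of the symbol, chosen after the largest falls were seen. Of 105 tested, 46 fell and 17 rose, at a median of -0.14, against 21.5% lower over all genes. With library totals the split was 9 higher and 65 lower, at a median of -0.28. The calls against DMSO were 26 higher and 19 lower with Rapalink-1, and 54 higher and 5 lower with rapamycin. The median span of the list was 50.9 kb. Among H3K4 methyltransferases, Kmt2d fell by 1.19 ± 0.10, Setd1a by 1.11 ± 0.15, Kmt2a by 1.04 ± 0.12, Kmt2b by 1.01 ± 0.12 and Kmt2c by 0.91 ± 0.08. The H3K36 methyltransferase Setd2 fell by 0.76 ± 0.06. Members that rose included the deacetylase Hdac11 by 0.99 ± 0.22, the acetyltransferases Kat5 by 0.65 ± 0.08 and Kat8 by 0.58 ± 0.09, and the H3K27 methyltransferase Ezh1 by 0.63 ± 0.11. Apart from the genes of the 15 largest falls, these members were chosen after their values were seen.

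Many factors that shorten, decap or silence mRNAs fell as well. Of 41 tested, 22 fell and 5 rose, at a median of -0.26, against 21.5% lower and 19.6% higher over all genes. With library totals the split was 2 higher and 29 lower, at a median of -0.40, against 35.2% lower over all genes, and the median span was 46.4 kb. The list was chosen after values were seen. Ddx6, a helicase of processing bodies, had 42.6, 46.1 and 46.2 CPM with Rapalink-1, against 123, 124 and 133 CPM with rapamycin and 85.3, 75.9 and 83.96 CPM with DMSO. It fell by 1.49 ± 0.06 (adjusted p = 9.4e-23), with DMSO between the drugs. Of the microRNA silencing complex, Ago2 fell by 0.93 ± 0.07, Ago1 by 0.88 ± 0.09 and the scaffold Tnrc6b by 1.06 ± 0.08. Cnot1, the scaffold of the CCR4-NOT deadenylase, fell by 0.71 ± 0.05, the catalytic subunit Cnot6 by 0.81 ± 0.07 and the decapping enzyme Dcp2 by 0.62 ± 0.09. Rc3h1 and Rc3h2, the roquins, fell by 1.06 and 1.10, and Dcp1b, a decapping cofactor, rose by 1.37 ± 0.21. Of 32 SR and hnRNP splicing proteins 14 fell and 3 rose, at a median of -0.09 (with library totals 2 higher and 23 lower, at a median of -0.24), the largest fall after Srrm2 being that of Srrm1 at -1.04 ± 0.20. Apart from Ddx6 and Srrm2, the members named were chosen after their values were seen.

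**Figure D5:**
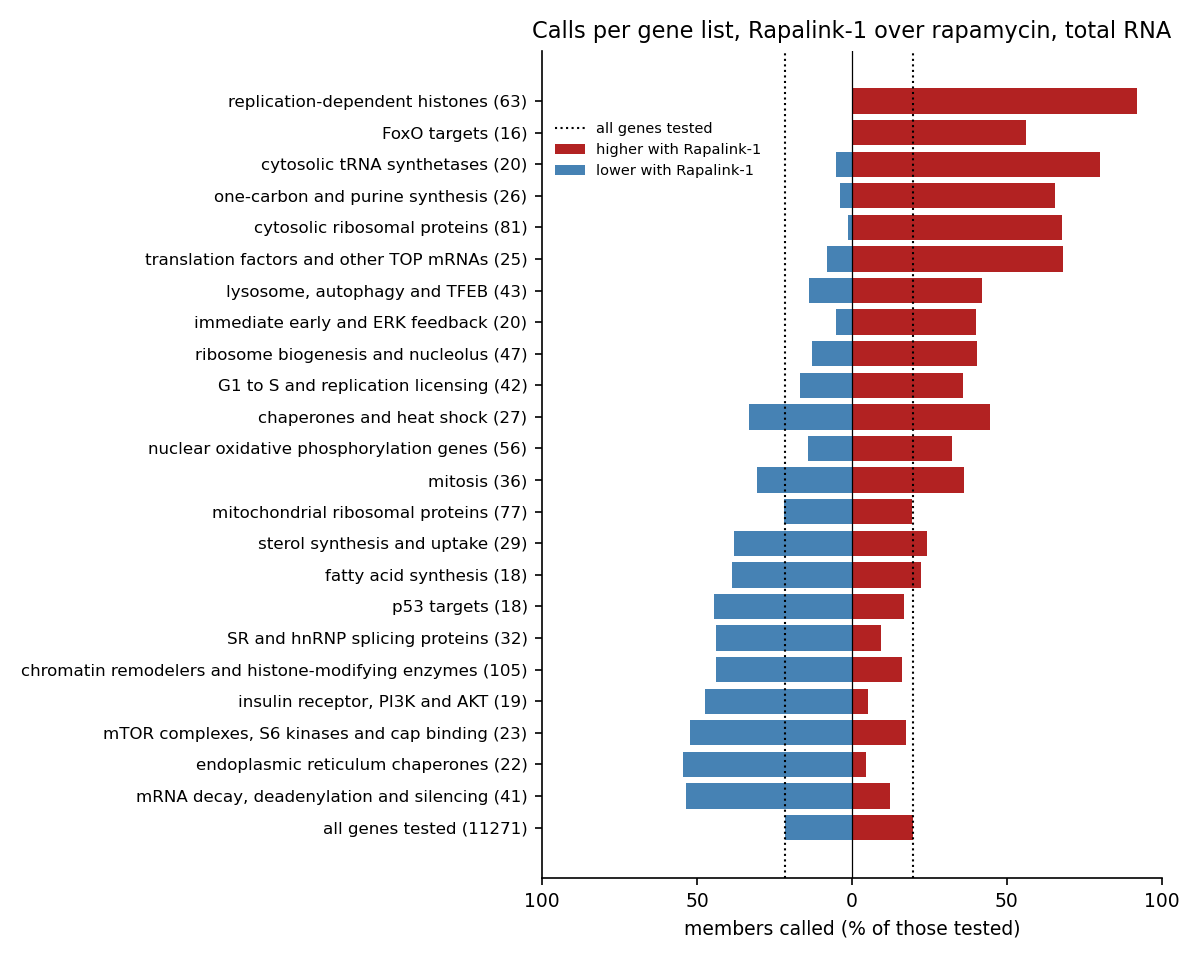
Percentage of tested members of 23 of the gene lists called higher (right) or lower (left) with Rapalink-1 than with rapamycin, with the number tested in parentheses and the shares over all 11271 genes as dotted lines (19.6% higher, 21.5% lower). Histones (58 of 63) and tRNA synthetases (16 of 20) reach furthest to the right of the lists drawn, and endoplasmic reticulum chaperones (12 of 22) and mRNA decay factors (22 of 41) furthest to the left; the short hedgehog list (5 of 7 lower) is among those not drawn.

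FoxO factors are transcription factors that AKT, itself activated by mTORC2, keeps out of the nucleus. Of 16 known targets tested, 9 were higher with Rapalink-1 than with rapamycin and 0 lower, at a median of 0.31, against 19.6% higher and 21.5% lower over all genes. This list and the unmarked lists below were chosen with earlier results of these data known, so their counts are descriptions only. With library totals the split was 8 higher and 1 lower, at a median of 0.17, against 9.37% higher over all genes. The calls against DMSO were 11 higher and 1 lower with Rapalink-1, and 11 higher and 1 lower with rapamycin. Txnip, an arrestin that limits glucose uptake encoded on chromosome 3 from 96557957 to 96561857 (GRCm38), had 40.6, 39.2 and 38.2 CPM with Rapalink-1, against 11.6, 8.71 and 12.3 CPM with rapamycin and 6.999, 7.93 and 8.27 CPM with DMSO. It rose by 1.87 ± 0.12 (adjusted p = 2.1e-17), and stood at 2.36 against DMSO with Rapalink-1 and 0.49 with rapamycin. Hbp1, a repressor of cell cycle genes, had 83.7, 87.7 and 84.7 CPM with Rapalink-1, against 50.7, 51.7 and 55.2 CPM with rapamycin and 14.99, 14.5 and 17.8 CPM with DMSO. Ccng2, a cyclin of quiescence, had 39.98, 39.97 and 42.6 CPM with Rapalink-1, against 25.3, 22.5 and 23.2 CPM with rapamycin and 5.47, 5.40 and 5.70 CPM with DMSO. Hbp1 rose by 0.70 ± 0.07 and Ccng2 by 0.79 ± 0.09, and in both genes the rapamycin libraries lay well above DMSO and below Rapalink-1. Klhl24, an adaptor of ubiquitin ligases, rose by 0.45 ± 0.06, and Fbxo32, the ubiquitin ligase atrogin-1, by 0.73 ± 0.14. Foxo3 itself rose by 0.63 ± 0.09, and was chosen after its values were seen. Irs2, an insulin receptor substrate, stood at 0.14, with a 95% interval of -0.01 to 0.30 (adjusted p = 0.14).

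Promoters of Txnip and Hbp1 are shown because both genes rose and their windows hold the FoxO letters. Capitals mark GTAAACA or its reverse complement; window, strand and source are as above.
Txnip (chr3:96557707-96558006, plus strand): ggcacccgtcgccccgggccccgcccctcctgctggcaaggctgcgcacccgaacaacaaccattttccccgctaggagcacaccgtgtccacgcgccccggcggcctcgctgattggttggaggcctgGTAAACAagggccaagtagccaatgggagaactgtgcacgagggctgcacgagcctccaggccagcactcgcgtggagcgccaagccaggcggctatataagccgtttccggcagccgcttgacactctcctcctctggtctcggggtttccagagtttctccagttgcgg
Hbp1 (chr12:31950196-31950495, minus strand): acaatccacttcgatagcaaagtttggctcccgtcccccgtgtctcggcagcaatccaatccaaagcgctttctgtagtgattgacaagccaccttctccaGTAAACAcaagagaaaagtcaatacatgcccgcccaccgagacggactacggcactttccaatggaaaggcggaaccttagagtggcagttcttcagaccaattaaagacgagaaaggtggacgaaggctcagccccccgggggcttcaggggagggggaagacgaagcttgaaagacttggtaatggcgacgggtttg
GTAAACA occurred in any promoter of 3 of 12 FoxO targets with a promoter in the table, and in 3.65% of all promoters counted singly. The third of these targets, Sesn1, a stress-induced inhibitor of mTORC1, stood at -0.03 ± 0.10 with overlapping values and was not called (adjusted p = 0.86).

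Genes of the insulin and PI3K pathway that lead to AKT moved the other way in part. Of 19 tested, 9 fell and 1 rose, against 21.5% lower and 19.6% higher over all genes. The median was -0.18 and the median span 68.6 kb. Library totals gave 0 higher and 15 lower, at a median of -0.32, against 9.37% higher and 35.2% lower over all genes. Pik3r3, a regulatory subunit of PI3K, had 18.2, 14.2 and 15.3 CPM with Rapalink-1, against 31.96, 34.2 and 33.3 CPM with rapamycin and 38.6, 30.2 and 29.4 CPM with DMSO. It fell by 1.06 ± 0.11 (adjusted p = 9e-11), with rapamycin near DMSO. The kinase gene Gsk3b fell by 0.74 ± 0.11 and the receptor Igf1r by 0.49 ± 0.11. For Igf1r the Rapalink-1 value was not called against DMSO, at 0.04, while rapamycin was higher than DMSO by 0.53.

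Among components of mTOR itself and of cap binding, 12 of 23 fell and 4 rose, at a median of -0.21, against 21.5% lower over all genes. With library totals the split was 2 higher and 14 lower, at a median of -0.36, against 35.2% lower over all genes. Mtor stood at -0.16, with a 95% interval of -0.30 to -0.02 (adjusted p = 0.063); it passed the test with library totals, with the 6 drug libraries alone, without DMSO replicate 3 and without rapamycin replicate 2 (adjusted p = 0.00043, 0.046, 0.049 and 0.045). Rps6kb1, an S6 kinase, fell by 0.27 ± 0.07 and the repressor Eif4ebp1 by 0.21 ± 0.07. The Eif4ebp1 call was lost without Rapalink-1 replicate 2 (-0.19, adjusted p = 0.054) and without rapamycin replicate 2 (-0.19, adjusted p = 0.051). Eif4g2, a relative of the scaffold eIF4G, had 481, 491 and 484 CPM with Rapalink-1, against 770.2, 752 and 741 CPM with rapamycin and 606, 598 and 727 CPM with DMSO, and Eif4g3, another, averaged 37.2 ± 0.999 CPM with Rapalink-1, 60.2 ± 2.60 CPM with rapamycin and 45.7 ± 3.30 CPM with DMSO (SD, n = 3). They fell by 0.64 ± 0.05 and 0.69 ± 0.07, with DMSO between the drugs. In contrast Eif4a2, a helicase of the cap complex, had 557, 579 and 543 CPM with Rapalink-1, against 338, 327 and 352 CPM with rapamycin and 376, 401 and 368 CPM with DMSO and rose by 0.72 ± 0.04 (adjusted p = 2.5e-17), and its cofactor Eif4b rose by 0.42 ± 0.04. Eif4ebp2 at -1.03 ± 0.26 and the TOP mRNA binding protein Larp1 at -0.53 ± 0.06 also fell, both chosen after their values were seen. Pdcd4, an inhibitor of eIF4A that S6 kinases mark for decay, stood at 0.13, with a 95% interval of 0.01 to 0.25 (adjusted p = 0.088), with calls in the 6 drug libraries alone and without DMSO replicate 2 (adjusted p = 0.036 and 0.037). It was well above DMSO with either drug, at 1.21 against DMSO with Rapalink-1 and 1.08 with rapamycin.

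RNAs of the translation machinery were higher with Rapalink-1 in most cases, mostly by small amounts, and fewer were called higher with library totals. Of 81 cytosolic ribosomal protein genes, 55 rose and 1 fell, at a median of 0.16, against 19.6% higher and 21.5% lower over all genes. Library totals gave 18 higher and 11 lower, at a median of 0.01, against 9.37% higher and 35.2% lower over all genes. Rpl3, which lies near the peptidyl transferase centre, had 3539, 3517 and 3472 CPM with Rapalink-1, against 2599.7, 2597 and 2596 CPM with rapamycin and 2612, 2493 and 2532 CPM with DMSO. It rose by 0.43 ± 0.04, Rpl10a by 0.45 ± 0.04, Rpl6 by 0.43 ± 0.04 and Rpl10 by 0.34 ± 0.04, the last a row with counts close to those of a pseudogene copy. Of 25 translation factors and other mRNAs that begin with a 5′ terminal oligopyrimidine tract (TOP), 17 rose and 2 fell, at a median of 0.25 (with library totals 12 higher and 6 lower, at a median of 0.11). Eef2, which moves the ribosome along, had 5309, 5238 and 5404 CPM with Rapalink-1, against 3869, 3845 and 3944 CPM with rapamycin and 2894, 3046 and 2804 CPM with DMSO. It rose by 0.45 ± 0.04 and Eef1a1, which delivers aminoacyl-tRNA, by 0.47 ± 0.03, and in both rapamycin lay between Rapalink-1 and DMSO. Eif3l, a subunit of initiation factor eIF3, rose by 0.52 ± 0.04. Pabpc1, the poly(A)-binding protein, fell by 1.18 ± 0.21 against the rest of the list and was chosen after its values were seen.

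Ribosome biogenesis genes split: 19 of 47 rose and 6 fell, at a median of 0.08, against 19.6% higher and 21.5% lower over all genes. Library totals gave 11 higher and 16 lower, at a median of -0.06, where the median changes sign. Npm1, the nucleolar chaperone nucleophosmin, had 5574, 5608 and 5136 CPM with Rapalink-1, against 3811, 3991 and 3992 CPM with rapamycin and 4218, 4203 and 4447 CPM with DMSO. Nop2, an rRNA methyltransferase, had 250.1, 248 and 251 CPM with Rapalink-1, against 188, 167 and 179 CPM with rapamycin and 251, 255 and 238 CPM with DMSO. Npm1 rose by 0.47 ± 0.04 and Nop2 by 0.49 ± 0.05; in Nop2 Rapalink-1 was at the DMSO level and rapamycin under it. Polr1c, a subunit of RNA polymerases I and III, rose by 0.67 ± 0.06 and the processing factor Pes1 by 0.48 ± 0.05. Nucleolin, Ncl, fell by 0.88 ± 0.18 and was chosen after its values were seen.

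Cytosolic tRNA synthetases, which charge tRNAs with amino acids, rose as a set of small changes. Of 20 tested, 16 rose and 1 fell, at a median of 0.26, against 19.6% higher and 21.5% lower over all genes. Library totals gave 11 higher and 3 lower, at a median of 0.12. Calls against DMSO were 12 higher and 2 lower with Rapalink-1, and 1 higher and 4 lower with rapamycin. Eprs had 1153, 1203 and 1169 CPM with Rapalink-1, against 879.5, 884 and 923 CPM with rapamycin and 919, 853 and 842 CPM with DMSO, a rise of 0.39 ± 0.04. Lars rose by 0.41 ± 0.05, Tars by 0.39 ± 0.04 and Vars by 0.38 ± 0.05. Tars averaged 388 ± 9.98 CPM with Rapalink-1, 296 ± 7.92 CPM with rapamycin and 336 ± 7.47 CPM with DMSO (SD, n = 3), with rapamycin under DMSO and Rapalink-1 above it. Its promoter is shown for the letters of the ATF4 element, TGATGNAA, here in capitals; window, strand and source are as above.
Tars (chr15:11399609-11399908, minus strand): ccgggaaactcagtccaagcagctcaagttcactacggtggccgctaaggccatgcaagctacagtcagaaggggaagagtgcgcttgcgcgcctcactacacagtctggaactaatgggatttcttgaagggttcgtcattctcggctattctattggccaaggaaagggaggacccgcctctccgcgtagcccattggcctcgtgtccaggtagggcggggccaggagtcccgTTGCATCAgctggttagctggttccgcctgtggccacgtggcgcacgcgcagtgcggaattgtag
The letters occurred on either strand in 5 of 13 synthetases with a promoter in the table, and in 3.97% of all promoters.

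ATF4 is the transcription factor of the integrated stress response, and mTORC1 raises its translation. Its own RNA fell by 0.18 ± 0.05, with both drugs far under DMSO, at -0.90 against DMSO with Rapalink-1 and -0.73 with rapamycin. Of 32 ATF4 targets and stress genes, 11 rose and 8 fell, at a median of -0.01, against 19.6% higher and 21.5% lower over all genes. Library totals gave 6 higher and 13 lower, at a median of -0.15. Enzymes of serine and folate metabolism were among the rises: Phgdh, the first enzyme of serine synthesis, had 872, 853 and 869 CPM with Rapalink-1, against 697, 659.8 and 705 CPM with rapamycin and 683, 739 and 636 CPM with DMSO. It rose by 0.33 ± 0.04, Mthfd1l of mitochondrial folate metabolism by 0.46 ± 0.06 and the asparagine synthetase Asns by 0.28 ± 0.04. The arginine transporter Slc7a1 fell by 0.72 ± 0.08, with Rapalink-1 under and rapamycin above DMSO. Trib3, a pseudokinase induced by stress, fell by 1.53 ± 0.27 and the cystine transporter Slc7a11 by 0.78 ± 0.21, both chosen after their values were seen. The Slc7a11 call was lost without rapamycin replicate 2 (-0.54, adjusted p = 0.079). Ddit4, an inhibitor of mTORC1, stood at -0.11, with a 95% interval of -0.37 to 0.15 (adjusted p = 0.55).

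Purine and one-carbon enzymes also rose in small steps. Of 26 tested, 17 rose and 1 fell, at a median of 0.22, against 19.6% higher and 21.5% lower over all genes. Library totals gave 8 higher and 2 lower, at a median of 0.08. Calls against DMSO were 13 higher and 0 lower with Rapalink-1, and 0 higher and 6 lower with rapamycin. Impdh2, the entry to guanine nucleotides, had 927, 920.1 and 911 CPM with Rapalink-1, against 653, 661 and 652 CPM with rapamycin and 746, 709.7 and 713 CPM with DMSO. It rose by 0.49 ± 0.04 (adjusted p = 1.6e-13). Atic and Paics of purine ring assembly rose by 0.44 ± 0.05 and 0.38 ± 0.04, and Adsl, which acts in the same path, by 0.40 ± 0.05. Odc1, the first enzyme of polyamine synthesis, stood at -0.06, with a 95% interval of -0.13 to 0.02 (adjusted p = 0.27), and fell with library totals (-0.20, adjusted p = 4.4e-05).

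Sterol synthesis genes, targets of SREBP factors, were mostly lower than DMSO with either drug and split in the comparison of the drugs. Of 29 tested, 11 were lower and 7 higher with Rapalink-1 than with rapamycin, against 21.5% lower and 19.6% higher over all genes. The median was 0.03, and library totals gave 3 higher and 14 lower, at a median of -0.11. Calls against DMSO were 1 higher and 19 lower with Rapalink-1, and 0 higher and 22 lower with rapamycin. Msmo1, a demethylase late in the path, had 89.97, 81.1 and 86.3 CPM with Rapalink-1, against 114, 121 and 112 CPM with rapamycin and 249, 216 and 238 CPM with DMSO. It fell by 0.44 ± 0.06, Sqle by 0.29 ± 0.05 and Hmgcs1 by 0.20 ± 0.05. Of the regulators, Srebf2 fell by 0.32 ± 0.06 and Srebf1 rose by 0.48 ± 0.05; Srebf1 averaged 213 ± 4.51 CPM with Rapalink-1, 153 ± 2.14 CPM with rapamycin and 168 ± 3.10 CPM with DMSO (SD, n = 3). Fdps, which makes farnesyl diphosphate, rose by 0.25 ± 0.04, with Rapalink-1 at the DMSO level.

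In fatty acid synthesis 7 of 18 genes fell and 4 rose, at a median of -0.02, against 21.5% lower and 19.6% higher over all genes. Library totals gave 0 higher and 9 lower, at a median of -0.17. The desaturase Scd2 had 238, 234 and 232 CPM with Rapalink-1, against 382, 385 and 360.2 CPM with rapamycin and 377, 384 and 407 CPM with DMSO, and rapamycin overlapped DMSO in it. Scd2 fell by 0.68 ± 0.05 (adjusted p = 3.4e-16), its relative Scd1 by 0.61 ± 0.06 and the carboxylase Acaca by 0.38 ± 0.06. Acly, which makes cytosolic acetyl-CoA, rose by 0.23 ± 0.04, a call that was lost with library totals (0.09, adjusted p = 0.076).

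Chaperones of the endoplasmic reticulum and of other compartments had medians of opposite sign with TMM scaling and of the same sign with library totals. Of 22 endoplasmic reticulum chaperones, 12 fell and 1 rose, at a median of -0.21, against 21.5% lower and 19.6% higher over all genes. Library totals gave 0 higher and 16 lower, at a median of -0.36, against 35.2% lower over all genes. Manf, a secreted factor of the unfolded protein response, had 197, 198 and 187 CPM with Rapalink-1, against 300.1, 294 and 292 CPM with rapamycin and 302, 330.2 and 298 CPM with DMSO. It fell by 0.60 ± 0.05 (adjusted p = 7.5e-14), with rapamycin close to DMSO. The chaperones Hyou1 and Creld2 fell by 0.52 ± 0.05 and 0.43 ± 0.06, and Hspa5, the BiP chaperone, by 0.23 ± 0.04. Of 27 cytosolic and mitochondrial chaperones, 12 rose and 9 fell, at a median of 0.06 (with library totals 9 higher and 10 lower, at a median of -0.08). Hspa8, the constitutive HSP70, had 4480.3, 4608 and 4391 CPM with Rapalink-1, against 3391, 3294 and 3333 CPM with rapamycin and 6328, 5970.01 and 6102 CPM with DMSO. It was higher with Rapalink-1 than with rapamycin by 0.43 ± 0.04, and both drugs were under DMSO. The mitochondrial chaperonin Hspd1 rose by 0.46 ± 0.04, and the subunits Cct4 and Cct2 of the chamber that folds actin and tubulin by 0.41 ± 0.04 and 0.42 ± 0.04. Of 13 tubulin genes, a list chosen after values were seen, 8 rose and 0 fell, at a median of 0.19 (with library totals 4 higher and 2 lower, at a median of 0.05).

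Cell cycle genes split. Of 42 genes of the G1 to S step and replication licensing, 15 rose and 7 fell, at a median of 0.08. Over all genes 19.6% were higher and 21.5% lower. Library totals gave 9 higher and 14 lower, at a median of -0.07, where the median changes sign. Cdt1, which loads the MCM helicase, had 224, 229.98 and 250.3 CPM with Rapalink-1, against 128, 144 and 133 CPM with rapamycin and 122, 118 and 139 CPM with DMSO. It rose by 0.80 ± 0.06 (adjusted p = 8.4e-15), Pold1, the catalytic subunit of polymerase delta, by 0.56 ± 0.05 and the helicase subunit Mcm6 by 0.39 ± 0.04. The phosphatase Cdc25a fell by 0.61 ± 0.06 and the cyclin Ccnd1 by 0.41 ± 0.12; Ccnd1 averaged 12.3 ± 1.21 CPM with Rapalink-1, 16.3 ± 0.517 CPM with rapamycin and 17.8 ± 0.255 CPM with DMSO (SD, n = 3). Of 36 mitotic genes, 13 rose and 11 fell, at a median of 0.07 (with library totals 5 higher and 17 lower, at a median of -0.07). The 4 members with the smallest p, given next, all fell and do not stand for the list. The proliferation marker Mki67 had 245, 259.6 and 279 CPM with Rapalink-1, against 428, 392 and 381 CPM with rapamycin and 252, 229 and 269 CPM with DMSO. It fell by 0.62 ± 0.05 relative to rapamycin, with Rapalink-1 near DMSO. Cenpf and Aspm, of the kinetochore and the spindle pole, fell by 0.56 ± 0.05 and 0.42 ± 0.05 although both drugs were above DMSO. Mad2l1, of the spindle checkpoint, fell by 0.50 ± 0.06.

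Of 18 p53 targets, 8 fell and 3 rose, at a median of -0.03 (with library totals 3 higher and 9 lower, at a median of -0.17). The nuclease Aen had 33.3, 33.1 and 35.9 CPM with Rapalink-1, against 60.7, 55.96 and 59.4 CPM with rapamycin and 82.6, 79.1 and 67.1 CPM with DMSO, a fall of 0.78 ± 0.08, and Ei24 fell by 0.61 ± 0.07. Mdm4, an inhibitor of p53, fell by 0.54 ± 0.08, and Zmat3, an RNA-binding zinc-finger protein, by 1.65 ± 0.28 at 1.58 ± 0.351 CPM with Rapalink-1, 5.04 ± 1.34 CPM with rapamycin and 3.61 ± 0.73 CPM with DMSO (SD, n = 3). Among 9 genes of the MYC network 2 rose and 3 fell, at a median of -0.05 (with library totals 1 higher and 4 lower, at a median of -0.19), few genes and near the shares over all genes of 19.6% higher and 21.5% lower. Mycl rose by 0.60 ± 0.09, and the antagonists Mga and Mxi1 fell by 0.39 ± 0.06 and 0.26 ± 0.08, the Mxi1 call being lost without rapamycin replicate 2 (-0.20, adjusted p = 0.073).

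Nuclear genes of respiration moved in both directions. Of 56 nuclear oxidative phosphorylation genes, 18 rose and 8 fell, at a median of 0.05, and with library totals 8 higher and 22 lower, at a median of -0.09. Atp5b, a subunit of ATP synthase, rose by 0.37 ± 0.04, Uqcrc2 of complex III by 0.38 ± 0.05 and Ndufa9 of complex I by 0.32 ± 0.05. Of 77 mitochondrial ribosomal proteins 15 rose and 17 fell, at a median of 0.00 (with library totals 8 higher and 33 lower, at a median of -0.14). Their counts were near the shares over all genes, 19.6% higher and 21.5% lower. Mrps30 rose by 0.45 ± 0.06, Mrpl44 by 0.44 ± 0.06, Mrpl38 by 0.44 ± 0.07 and Mrps9 by 0.40 ± 0.06. These 4 had the smallest p of a list in which falls were slightly more numerous than rises. In glycolysis 9 of 26 genes rose and 5 fell, at a median of -0.01 (with library totals 4 higher and 9 lower, at a median of -0.16). Gpi1 rose by 0.44 ± 0.05, Pkm by 0.37 ± 0.04 and Aldoa by 0.29 ± 0.04, and Pfkfb3, which sets the level of an activator of phosphofructokinase, fell by 1.14 ± 0.16 at 4.80 ± 0.822 CPM with Rapalink-1, 10.6 ± 0.116 CPM with rapamycin and 13.00 ± 0.898 CPM with DMSO (SD, n = 3).

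The 13 genes of mitochondrial DNA had a median of -0.69, with 1 called lower and 0 higher (with library totals 0 higher and 4 lower, at a median of -0.84). For 11 of 13 the values of the drugs did not overlap, all lower with Rapalink-1. Over all 11271 genes 52.2% did not overlap, and 3013 genes did so with lower values with Rapalink-1. mt-Cytb had 174, 173 and 179 CPM with Rapalink-1, against 390.2, 409 and 355 CPM with rapamycin and 297, 221 and 621 CPM with DMSO, and stood at -1.13, with a 95% interval of -1.87 to -0.40 (adjusted p = 0.054). The DMSO libraries ranged more widely than the drug libraries in this gene, which enters the spread of the joint fit. Intervals in this paragraph rest on a normal quantile and are narrower than the p-values of the test imply. In the 6 drug libraries alone 11 of 13 fell, and without DMSO replicate 3 the count was 10. The shares lower over all genes in these fits were 23% and 22.3%. mt-Nd6 fell by 0.65 ± 0.19 (adjusted p = 0.036); without 1 library this call was lost in 6 of 9 cases (adjusted p up to 0.11). mt-Nd5 stood at -0.78, with a 95% interval of -1.30 to -0.26 (adjusted p = 0.058), and mt-Nd4 at -1.06, with a 95% interval of -1.85 to -0.26 (adjusted p = 0.087). Without DMSO replicate 2 the adjusted p was 0.025 for mt-Cytb, 0.0077 for mt-Nd5 and 0.045 for mt-Nd4. Without DMSO replicate 3 it was 0.00027 for mt-Cytb, 0.027 for mt-Nd5 and 0.00038 for mt-Nd4.

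Lysosomal and autophagy genes, targets of TFEB and TFE3 that mTORC1 restrains, rose more often than they fell with TMM scaling and not with library totals. Of 43 tested, 18 rose and 6 fell, at a median of 0.16, against 19.6% higher and 21.5% lower over all genes. With library totals the split was 7 higher and 8 lower, at a median of 0.01, against 9.37% higher and 35.2% lower over all genes. Flcn, folliculin, had 81.5, 84.7 and 81.00 CPM with Rapalink-1, against 49.5, 45.3 and 52.3 CPM with rapamycin and 46.3, 48.8 and 41.1 CPM with DMSO. It rose by 0.75 ± 0.07 (adjusted p = 6.5e-12), with rapamycin near DMSO, and the autophagy receptor Sqstm1 rose by 0.46 ± 0.05. Lamp1 of the lysosomal membrane rose by 0.31 ± 0.05, and the autophagy kinase Ulk1 fell by 1.51 ± 0.20 at 3.08 ± 0.487 CPM with Rapalink-1, 8.83 ± 1.16 CPM with rapamycin and 4.54 ± 0.906 CPM with DMSO (SD, n = 3). Of 20 immediate early and ERK feedback genes 8 rose and 1 fell, at a median of 0.15 (with library totals 6 higher and 1 lower, at a median of 0.01). The phosphatase Dusp5 rose by 0.72 ± 0.10, Junb by 0.61 ± 0.09 and Ier5 by 0.61 ± 0.10, each with rapamycin near DMSO. Jund rose by 0.28 ± 0.05 with both drugs under DMSO.

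Developmental pathways held few genes, to be set against 19.6% higher and 21.5% lower over all genes. In the hedgehog pathway 5 of 7 fell and 1 rose, at a median of -0.33 and a median span of 79.3 kb (with library totals 0 higher and 5 lower, at a median of -0.47). The coreceptor Cdon fell by 0.53 ± 0.09, the transducer Smo by 0.33 ± 0.07, the transcription factor Gli3 by 0.65 ± 0.15 and the receptor Ptch1 by 0.41 ± 0.10. Of 15 Notch pathway genes 4 rose and 3 fell, at a median of 0.05 (with library totals 1 higher and 6 lower, at a median of -0.09). The ligands Dll1 and Dll3 rose by 0.37 ± 0.09 and 0.47 ± 0.14, and the coactivator Maml1 and the DNA-binding protein Rbpj fell by 1.04 ± 0.20 and 0.33 ± 0.08. The Dll3 call was lost without rapamycin replicate 2 (0.31, adjusted p = 0.11) and with library totals (0.33, adjusted p = 0.053). Of 21 NRF2 and antioxidant genes 5 rose and 6 fell, at a median of -0.08 (with library totals 3 higher and 14 lower, at a median of -0.22): Tkt, transketolase, rose by 0.56 ± 0.04, catalase, Cat, by 0.40 ± 0.07, and Nfe2l2, which encodes NRF2, fell by 0.46 ± 0.08 and Txnrd1 by 0.28 ± 0.05. Among 17 clock genes 4 rose and 5 fell, at a median of -0.14 (with library totals 3 higher and 6 lower, at a median of -0.28). Counts in the Notch, NRF2 and clock lists lay near the shares over all genes. Bhlhe40 rose by 1.16 ± 0.21, and Clock, Nfil3 and Cry1 fell by 0.92 ± 0.11, 0.88 ± 0.18 and 0.46 ± 0.10.

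Lineage markers were tested where a row bore their symbol, 7 of 18 for neural progenitors and glia and 9 of 21 for neurons; in bulk RNA, fewer cells of a type and less RNA per cell cannot be told apart. Of 7 neural progenitor and glial markers tested 2 rose and 0 fell, at a median of 0.05 (with library totals 1 higher and 1 lower, at a median of -0.09). Vim, an intermediate filament of progenitors, had 238, 240.4 and 245 CPM with Rapalink-1, against 175, 184 and 183 CPM with rapamycin and 171, 176 and 172 CPM with DMSO and rose by 0.41 ± 0.05. Prom1 rose by 0.18 ± 0.07 (adjusted p = 0.036), a call that was lost with library totals (0.03, adjusted p = 0.74) and without any 1 of 5 of the 6 drug libraries. Slc1a2, the glutamate transporter GLT1, stood at -0.22, with a 95% interval of -0.47 to 0.03 (adjusted p = 0.16) and passed the test with library totals (-0.36, adjusted p = 0.017). Fabp7, a fatty acid binding protein of radial glia, stood at -0.22, with a 95% interval of -0.64 to 0.21 (adjusted p = 0.45). Of 9 markers of granule neurons and other neurons, 4 rose and 2 fell, at a median of 0.13 (with library totals 3 higher and 2 lower, at a median of -0.01), against 19.6% higher and 21.5% lower over all genes. Tubb3 rose by 0.35 ± 0.06, Otx2 by 0.32 ± 0.06 and Zic2 by 0.37 ± 0.08, and Map2 fell by 0.30 ± 0.07.

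Markers of other cells gave no called difference except for 1 gene. The row of Itgam, an integrin of myeloid cells, had 92.9, 92.2 and 78.04 CPM with Rapalink-1, against 82.7, 90.3 and 90.5 CPM with rapamycin and 102, 77.3 and 111 CPM with DMSO, and its groups overlapped, at 0.00, with a 95% interval of -0.25 to 0.24 (adjusted p = 0.99). Whether the reads of this row come from the integrin gene was not determined, so it is weak evidence on myeloid cells. Other defining microglia genes had no row under their symbol and were not analysed here. The globin row Hbb-bs averaged 24.6 ± 2.60 CPM with Rapalink-1, 24.3 ± 3.93 CPM with rapamycin and 28.2 ± 3.27 CPM with DMSO (SD, n = 3), a difference of 0.02, with a 95% interval of -0.20 to 0.23 (adjusted p = 0.91). Hbb-bt, another globin, averaged 19.8 ± 2.25 CPM with Rapalink-1, 19.9 ± 3.80 CPM with rapamycin and 21.5 ± 1.59 CPM with DMSO (SD, n = 3), a difference of 0.00, with a 95% interval of -0.24 to 0.23 (adjusted p = 0.98). Cnp, of oligodendrocytes, stood at 0.29, with a 95% interval of 0.02 to 0.57 (adjusted p = 0.09). Acta2, a smooth muscle actin, rose by 0.28 ± 0.09 (adjusted p = 0.01), which was lost with library totals (0.13, adjusted p = 0.23) and without rapamycin replicate 3 (0.24, adjusted p = 0.061).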

How the data were processed

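Both kinds of library came from the same lysates, and total RNA was taken as an aliquot, per the labels' protocols. The count values are whole-number read counts per transcript, deposited by the authors without normalization and aligned to mouse GRCm38 per the submitters' processing notes. Which aligner, counting program, strand setting and annotation release were used is not given in the sources used here. Gene symbols and Ensembl identifiers are annotation columns of a table deposited by the authors, whose test results were not used here.

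Of 27382 transcript rows, 6378 held no read and 8528 had the counts of some other row. Merging rows of identical counts or of a single Ensembl gene left 15307 features; for 62 with differing rows, the row with most reads was used. Symbols named 9787 features, and 16 features held several symbols. Rows without a symbol held 1.92 to 2.06% of the reads and were fitted too. Genes passed filterByExpr (minimum count 10, minimum total 15). The 9 RNA libraries were fitted with edgeR 4.0.16 (TMM, glmQLFit with robust dispersion, glmQLFTest) in R 4.3.3. Plots and summaries used Python 3.11.15 with pandas 2.3.3 and matplotlib 3.10.9. On simulated data with 100 genes changed by a log2 value of 0.5 and 100 by 1, the fit over 11271 genes called 93 and 100 of them. The changed genes were drawn from those with higher counts, and all genes had the same simulated spread. Recovery among genes of few reads was therefore not examined. Alternatives used DESeq2 1.42.0, other scaling, filters and merging, a replicate block, and fits without each library. The scaling without histone rows was chosen after seeing the data.

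Members and lists were chosen with earlier results of these data known. Genes named are the 15 that rose most and the 15 that fell most, each called, with a symbol, a mean log2 CPM of 4 or more and no overlap between the drugs, up to 4 members of each of 32 lists with the smallest p, and 20 fixed genes; some of these are not reported here. Lists are described by counts and medians. Genomic spans and promoters came from RefSeq tables of GRCm38.p6, matched by symbol or synonym. Motifs were searched as exact letters on both strands.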

Additional observations from a re-analysis of the deposited data

How the results depend on the processing

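Of 18 alternatives, library totals without TMM moved the counts by over 1.5 times, to 1056 genes higher and 3963 lower, with a median of all genes of -0.14. DESeq2 size factors gave 2227 higher and 2410 lower, no count filter 2219 and 2400, a minimum count of 50 2183 and 2318, the 6 drug libraries alone 2508 and 2577, sums of distinct rows 2216 and 2423, and the DESeq2 Wald test 1968 and 2174. Scaling without histone rows, added after seeing the data, gave 2354 and 2328. Without 1 library, counts were 1847 to 2484 higher and 2054 to 2540 lower. With the replicate block, 2112 were higher and 2355 lower, and 4446 of 4635 calls remained in direction; of the called genes named in the text, mt-Nd6 was not called there (-0.66, adjusted p = 0.088). The numbers were not treated as pairs: same-numbered Rapalink-1 and rapamycin libraries had deviations correlated at -0.0091, 0.047 and -0.016. Of 178 called genes named in the text, 166 were called in the same direction in all 18 alternatives; none of the others reversed. The causes were not tested. Depth limits genes of few reads most, and 3 libraries a group do not show whether separate cultures would vary more.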
